A study of Homo sapiens with 6 samples.

Results

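Renal tubule identity and tubular injury were examined through 9 genes among the 29483 of the table. They were chosen by name for their roles, and no measured value entered the rule. Earlier results of these data were known when these genes and the wider marker lists were chosen. The genes were PAX8, a transcription factor of the nephron lineage, the brush border enzymes ANPEP, DPP4, and GGT1, the water channel AQP1, the injury markers HAVCR1 and LCN2, and the intermediate filament genes VIM and KRT18. All 9 were found in the table, and 3 of them (KRT18, VIM, and LCN2) passed the filter for the test, which was a mean FPKM of 0.5 or more. FPKM divides the count of a gene by its length and by the sequencing depth, so that levels can be compared between genes.

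RNA was sequenced from cells labelled HK-2, an established immortalized line of human renal proximal tubular epithelium, which models a single cell type in culture. Under this label, 15 of 19 brush border genes and 12 of 16 proximal transporter and metabolism genes in the table lay under a mean FPKM of 0.5, and the others are described below. Both groups were kept in 25 mM high D-glucose (HG) medium for 7 days. The control group (3 libraries) then stayed in HG medium for the same further day without TEPP-46, and a vehicle is not stated in the sources used here. The case group (3 libraries) was then exposed to 10 μM TEPP-46, an activator of pyruvate kinase M2 (PKM2), for 1 day in HG medium. Cells without HG were not analysed here, so the comparison concerns TEPP-46 under HG alone. The paper describes the replicates as independent and treated separately, without saying when their cultures were split. The P-values measure the spread between these libraries only.

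The FPKM values implied 18634891, 17924033, and 17378710 reads for the control libraries, in the order of their replicate numbers, and 16711934, 16047243, and 15363254 reads for the case libraries. The control libraries lay close together, with a median absolute difference over the tested genes of 0.0985 to 0.109 on the log2 scale between any pair. The case libraries lay 0.182 to 0.273 apart. Case replicate 2 was the case library nearest to the controls, at 0.201 to 0.207, against 0.299 to 0.331 for case replicate 1 and 0.282 to 0.292 for case replicate 3. Values without case replicate 2 are therefore given for the 3 tested genes of the 9, and calls in the wider lists are counted without it.

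In the proximal tubule, the apical membrane is folded into a brush border that carries peptidases and endocytic receptors, and AQP1 lets water follow the reabsorbed solutes. PAX8 acts in renal epithelium from development onward, and its RNA is used to place a cell in the nephron lineage. When tubular cells are injured, they are known to lose brush border proteins and to gain the mesenchymal filament vimentin beside their keratins. They are also known to shed HAVCR1 (kidney injury molecule 1) and to secrete LCN2 (neutrophil gelatinase-associated lipocalin). Cultured tubular lines are known to keep only a portion of this program.

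The 250 bases before the annotated start of 3 of the genes are shown, because these 3 stand for the contrast in level described below. VIM was among the most abundant genes and changed between the groups, whereas PAX8 and AQP1 were held by few reads. The sequences are those of RefSeq on GRCh38.p14, which gave 8 of the 9 genes a promoter, and they are written from 5′ to 3′ on the strand of the gene. Capitals mark the GC box GGGCGG, the CCAAT box CCAAT, and the TATA box TATAAA, searched on both strands together with the AP-1 motif TGACTCA.
VIM (chr10:17227991-17228240, plus strand): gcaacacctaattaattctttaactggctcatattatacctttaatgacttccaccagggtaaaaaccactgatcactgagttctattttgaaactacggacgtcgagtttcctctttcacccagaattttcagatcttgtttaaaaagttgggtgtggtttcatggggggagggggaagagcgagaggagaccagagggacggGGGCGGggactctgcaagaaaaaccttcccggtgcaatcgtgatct
PAX8 (chr2:113278922-113279171, minus strand): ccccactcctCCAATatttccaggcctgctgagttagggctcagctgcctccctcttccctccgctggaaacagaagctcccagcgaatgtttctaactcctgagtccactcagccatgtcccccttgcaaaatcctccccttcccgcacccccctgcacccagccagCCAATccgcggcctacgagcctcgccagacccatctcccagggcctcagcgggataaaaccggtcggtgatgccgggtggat
AQP1 (chr7:30911603-30911852, plus strand): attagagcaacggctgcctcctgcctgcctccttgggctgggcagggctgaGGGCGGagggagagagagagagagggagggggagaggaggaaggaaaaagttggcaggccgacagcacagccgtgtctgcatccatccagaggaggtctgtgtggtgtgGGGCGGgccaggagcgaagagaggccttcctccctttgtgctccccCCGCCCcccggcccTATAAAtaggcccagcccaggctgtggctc
The VIM window held 1 GC box, which 42.6% of 35116 promoters of the same length held. The PAX8 window held 2 CCAAT boxes (32.0% of promoters), and the AQP1 window held 3 GC boxes and 1 TATA box (10.7% of promoters for the TATA box). None of the 3 held the AP-1 motif, which 4.2% of promoters held. The number of CpG dinucleotides was 8 for VIM and AQP1 and 11 for PAX8, against a median of 11 over all promoters. These matches describe the letters of the windows and were not tested against the expression values.

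The 9 genes fell into 2 ranges of level that were far apart. KRT18, VIM, and LCN2 had mean FPKM over the 6 libraries of 190, 119, and 14.1 and ranked 207th, 376th, and 3349th of the 29483 genes. The next gene, DPP4, had a mean FPKM of 0.258, which was 54.5-fold under LCN2. It was followed by GGT1 (0.162), PAX8 (0.114), ANPEP (0.0748), AQP1 (0.0653), and HAVCR1 (0.0264). The first 3 genes kept their order in 6 of 6 libraries. Among the low genes the order was not stable, because DPP4 exceeded GGT1 in 5 libraries, and GGT1 exceeded PAX8, PAX8 exceeded ANPEP, and ANPEP exceeded AQP1 in 4 libraries each.

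**Figure D1:**
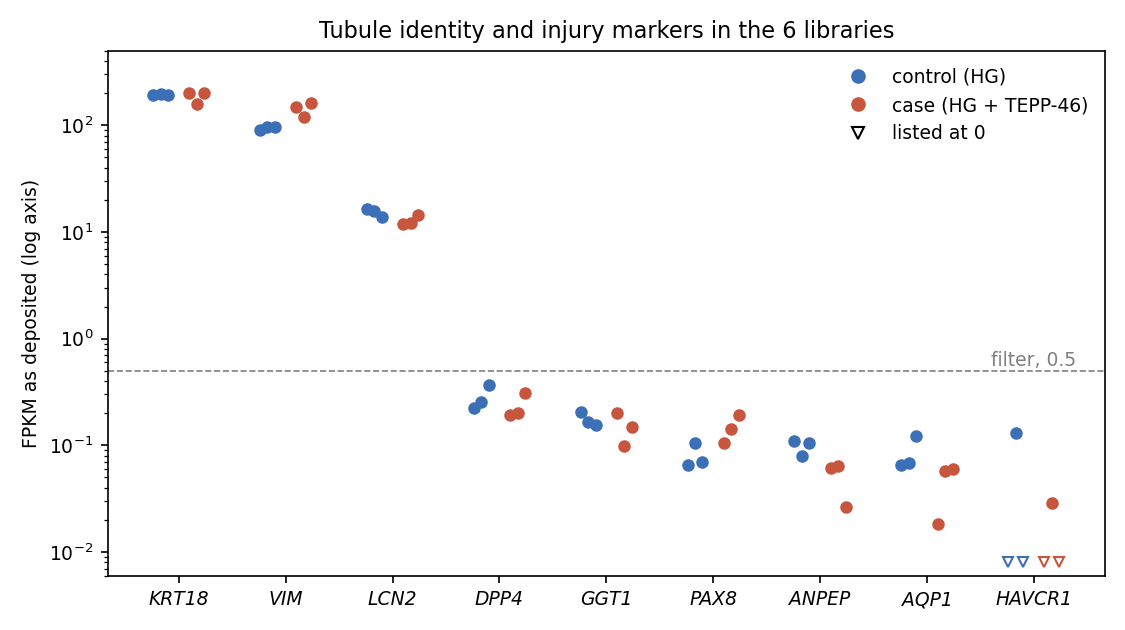
FPKM as deposited (log axis) of the 9 genes in each of the 3 control (blue) and 3 case (red) libraries, ordered by mean level, with open triangles for a library listed at 0. KRT18, VIM, and LCN2 lie above the filter of 0.5 (dashed line), and the 6 other genes lie below it in every library.

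No gene of the 9 was at 0 in all 6 libraries, but the 6 low genes were held by at most 32 reads in any library. Only HAVCR1 was listed at 0 in single libraries, in 4 of the 6. The deposited values move in steps of whole reads, from which the reads of each gene were recovered, and these reads carry counting error beside the error between libraries. In bulk RNA, fewer cells that express a gene and less RNA of it per cell cannot be told apart. The exact permutation test of 3 against 3 libraries cannot give a P-value under 0.1 (two-sided), so no low gene could pass a threshold of 0.05 in it.

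PAX8 (ENSG00000125618) lies on chromosome 2 of GRCh38, at 113215997 to 113278921 on the minus strand. Its FPKM was 0.0653, 0.106, and 0.07 in control replicates 1, 2, and 3 and 0.105, 0.143, and 0.194 in case replicates 1, 2, and 3. After scaling between libraries the groups did not overlap, with the case libraries higher, whereas without scaling control replicate 2 exceeded case replicate 1. The reads were 9, 14, and 9 for the controls and 13, 17, and 22 for the cases. The sums of 32 (exact Poisson 95% interval 21.9 to 45.2) and 52 (38.8 to 68.2) reads had overlapping intervals, which cover counting error only. The ratio of the scaled means was 1.93 (exact permutation P = 0.1, the smallest possible). In a limma voom fit of the recovered reads of all genes with at least 30 reads, the log2 fold change was 0.91 (SE 0.41, adjusted P = 0.148). PAX8-AS1, an antisense gene that overlaps PAX8, had a mean FPKM of 0.0283, and reads of the 2 strands cannot be told apart because the strandedness of the libraries is not stated.

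The 3 brush border enzymes were low in both groups. ANPEP (ENSG00000166825, chromosome 15, 89784895 to 89815401, minus strand), or aminopeptidase N, trims peptides at the luminal surface. Its FPKM was 0.11, 0.0802, and 0.106 in the control libraries and 0.0614, 0.064, and 0.0267 in the case libraries. All case libraries lay under all control libraries. These values rest on 10, 7, and 9 reads against 5, 5, and 2 reads, and the intervals of the sums overlapped (26 reads, 17 to 38.1, against 12 reads, 6.2 to 21). The ratio of the scaled means was 0.541 (exact permutation P = 0.1), and the voom estimate was -0.85 (SE 0.55, adjusted P = 0.309).

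DPP4 (ENSG00000197635, chromosome 2, 161992245 to 162074394, minus strand) encodes dipeptidyl peptidase 4, the enzyme that inactivates incretin hormones. Its FPKM was 0.225, 0.256, and 0.368 in the control libraries and 0.191, 0.199, and 0.312 in the case libraries, from 21, 23, and 32 against 16, 16, and 24 reads. The groups overlapped, since case replicate 3 exceeded control replicates 1 and 2 (exact permutation P = 0.5, voom log2 fold change -0.19, SE 0.35, adjusted P = 0.749). DPP4 was the most abundant of the 6 low genes.

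GGT1 (ENSG00000100031, chromosome 22, 24594811 to 24629005, plus strand) encodes gamma-glutamyltransferase 1, which splits extracellular glutathione. Its FPKM was 0.206, 0.164, and 0.156 in the control libraries and 0.202, 0.0984, and 0.147 in the case libraries, from 17, 13, and 12 against 15, 7, and 10 reads. The groups overlapped, because case replicate 1 was as high as the control libraries (exact permutation P = 0.8, voom log2 fold change -0.19, SE 0.43, adjusted P = 0.802). Other genes were found by a symbol that begins with GGT, and whether they share reads with GGT1 was not tested. Of these, GGT5 had a mean FPKM of 0.187, GGTLC4P of 0.199, and GGT6 of 0.0279, while GGT3P was listed at 0 throughout. The family member GGT7 was far above GGT1, with a mean FPKM of 3.06, and did not pass the test (log2 fold change -0.37, SE 0.13, limma adjusted P = 0.0862).

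AQP1 (ENSG00000240583, chromosome 7, 30911853 to 30925517, plus strand) was held by 4, 4, and 7 reads in the control libraries and 1, 3, and 3 reads in the case libraries. In FPKM these were 0.0656, 0.0682, and 0.123 against 0.0183, 0.0571, and 0.0596. The case libraries lay under the control libraries without overlap, but only by a margin of less than 1 read between case replicate 3 and control replicate 1. The intervals of the sums overlapped (15 reads, 8.4 to 24.7, against 7 reads, 2.81 to 14.4), and the exact permutation P was 0.1. Of the 6 low genes, 3 (PAX8, ANPEP, and AQP1) did not overlap between the groups, 1 higher and 2 lower in the case group. Over the 14323 genes of the table that were above 0 and under the filter, 9.15% did not overlap. Those genes include some with reads in few libraries, whereas PAX8, ANPEP, and AQP1 had reads in every library. The share is therefore not a like comparison, and among the tested genes it was 39.9%.

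HAVCR1 (ENSG00000113249, chromosome 5, 157026742 to 157069396, minus strand) encodes the receptor that injured proximal tubules display and shed. It was above 0 only in control replicate 2, at an FPKM of 0.13, and in case replicate 2, at 0.029. The steps of its values allow either 10 and 2 reads or 5 and 1 reads in these libraries, because 2 gene lengths (4302 and 2151 bases) give whole reads. A library with no read allows up to 3 reads (a one-sided 95% limit, where the two-sided intervals used above would allow 3.69), or an FPKM of up to 0.0374 to 0.0454 in these 4 libraries at the longer length and 0.0748 to 0.0908 at the shorter one. The groups therefore could not be distinguished at this depth (exact permutation P = 1.0).

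LCN2 (ENSG00000148346, chromosome 9, 128149071 to 128153453, plus strand), a secreted protein that binds iron-carrying siderophores, was the only one of the 2 injury markers with a measurable level. Its FPKM was 16.4, 15.6, and 13.9 in the control libraries and 11.9, 12.1, and 14.5 in the case libraries, with means of 15.3 ± 1.31 and 12.8 ± 1.47 (SD, n = 3). Case replicate 3 lay above control replicate 3, so the groups overlapped. These levels rest on 310 to 489 reads per library. The log2 fold change was -0.18 (SE 0.11, limma adjusted P = 0.292), which did not pass the threshold of 0.05. Without case replicate 2 it was -0.11 (SE 0.11, adjusted P = 0.484), and leaving out each library in turn gave -0.11 to -0.26, with no call. When each library was set to the same FPKM sum (TPM), the change became -0.38 and passed (adjusted P = 0.0450), in a scaling that moved the median of all tested genes to -0.19.

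VIM (ENSG00000026025, chromosome 10, 17228241 to 17237593, plus strand), which encodes the filament protein of mesenchymal and dedifferentiated cells, was the only one of the 3 tested genes that rose. Its FPKM was 91.1, 96.1, and 97.1 in the control libraries and 150, 119, and 162 in the case libraries. Every case library exceeded every control library, and case replicate 2 was the lowest of the case group. The means were 94.8 ± 3.23 and 144 ± 22.2 (SD, n = 3), and the counts behind them were 8708 to 8888 reads per control library and 9835 to 12940 reads per case library. The ratio of the scaled means was 1.60, and the log2 fold change was 0.66 (SE 0.13, limma adjusted P = 0.0204). By P-value VIM ranked 548th of the 13599 tested genes.

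Without case replicate 2, the lowest case library for VIM, its log2 fold change was 0.82 (SE 0.06, limma adjusted P = 0.00409). That library was singled out from these same data. Without it, calls over all tested genes also rose, from 998 higher and 794 lower to 1813 and 1682. The larger change is therefore no separate evidence for VIM. When any control library was left out, the log2 fold change was 0.64 to 0.68 (limma adjusted P = 0.0831 to 0.0883). Without case replicate 3 it was 0.58 (limma adjusted P = 0.0759). The size held in these fits, but the threshold was missed. The antisense gene VIM-AS1 overlaps VIM and had a mean FPKM of 0.556, with a log2 fold change of 0.15 (SE 0.30, adjusted P = 0.767). The count of 1 of 3 tested genes called higher is set beside 7.34% of all tested genes called higher, and the count of 0 of 3 called lower beside 5.84% called lower. The count of 1 of 3 whose groups did not overlap is set beside 39.9% of all tested genes. With 3 genes tested, these counts say nothing about the 9 genes as a group.

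KRT18 (ENSG00000111057, chromosome 12, 52948871 to 52952906, plus strand) encodes the type I keratin of simple epithelia and was the most abundant of the 9 genes. Its FPKM was 193, 196, and 191 in the control libraries and 200, 158, and 202 in the case libraries, with means of 193 ± 2.69 and 187 ± 24.9 (SD, n = 3). The case libraries lay on both sides of the control libraries, since case replicate 2 was the lowest and the other 2 were the highest of all. The counts were 8161 to 11564 reads per library. The log2 fold change was 0.02 (SE 0.12, limma adjusted P = 0.926), its sign turned under other scalings, and without case replicate 2 it was 0.16 (SE 0.06, adjusted P = 0.0878). The 17 KRT18 pseudogenes of the table reached at most an FPKM of 0.324 in any library, so reads assigned to them were few beside those of KRT18.

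**Figure D2:**
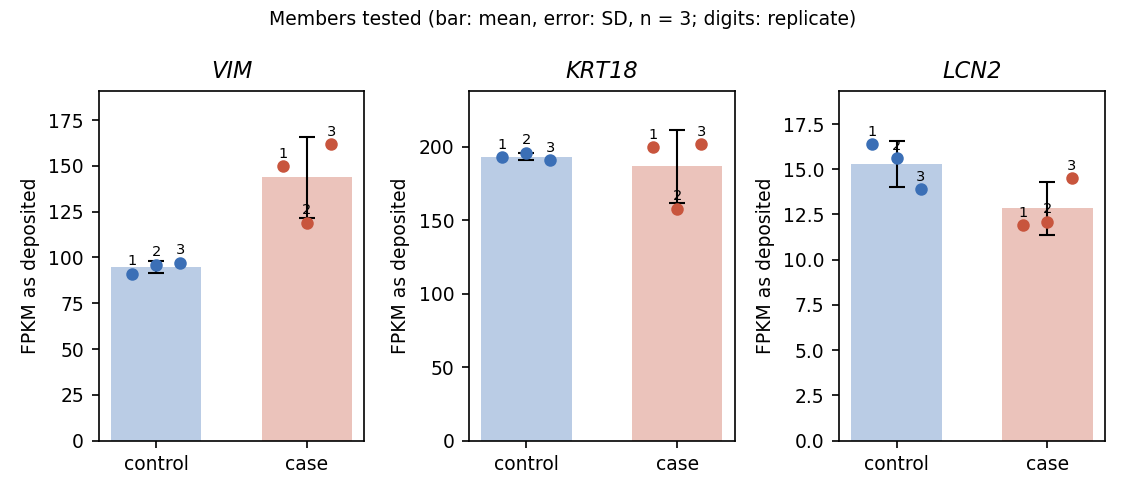
FPKM as deposited of VIM, KRT18, and LCN2 in each library (points, digits give the replicate), with the mean (bar) and SD (error bar) of the 3 control and 3 case libraries. The groups are apart for VIM (91.1 to 97.1 against 119 to 162) and overlap for KRT18 and LCN2.

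Case replicate 2 was the lowest case library for both VIM and KRT18, so the ratio of the filament genes within a library was taken, which a factor applied to a whole library cannot change. These ratios were chosen after the values had been seen. The ratio of VIM to KRT18 FPKM was 0.472, 0.490, and 0.509 in the control libraries and 0.749, 0.752, and 0.801 in the case libraries. The means were 0.491 ± 0.0185 and 0.767 ± 0.029 (SD, n = 3), and case replicate 2 was within the range of its group. The groups did not overlap (exact permutation P = 0.1, the smallest possible).

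The partner keratin of KRT18 in simple epithelia is KRT8, whose gene overlaps KRT18 on the opposite strand, so that the unstated strandedness limits their separation. KRT8 had FPKM of 356, 342, and 335 in the control libraries and 302, 246, and 266 in the case libraries. The groups did not overlap, but the change did not pass the test (log2 fold change -0.27, SE 0.11, limma adjusted P = 0.125). The ratio of KRT8 to KRT18 was 1.85, 1.74, and 1.75 in the control libraries and 1.51, 1.56, and 1.31 in the case libraries, without overlap (exact permutation P = 0.1). The ratio of VIM to KRT8 was 0.276 ± 0.0178 for the controls and 0.530 ± 0.0691 for the cases (SD, n = 3, exact permutation P = 0.1). The ratio of LCN2 to KRT18 overlapped between the groups, at 0.0792 ± 0.00624 and 0.0693 ± 0.00883 (SD, n = 3, exact permutation P = 0.2).

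**Figure D3:**
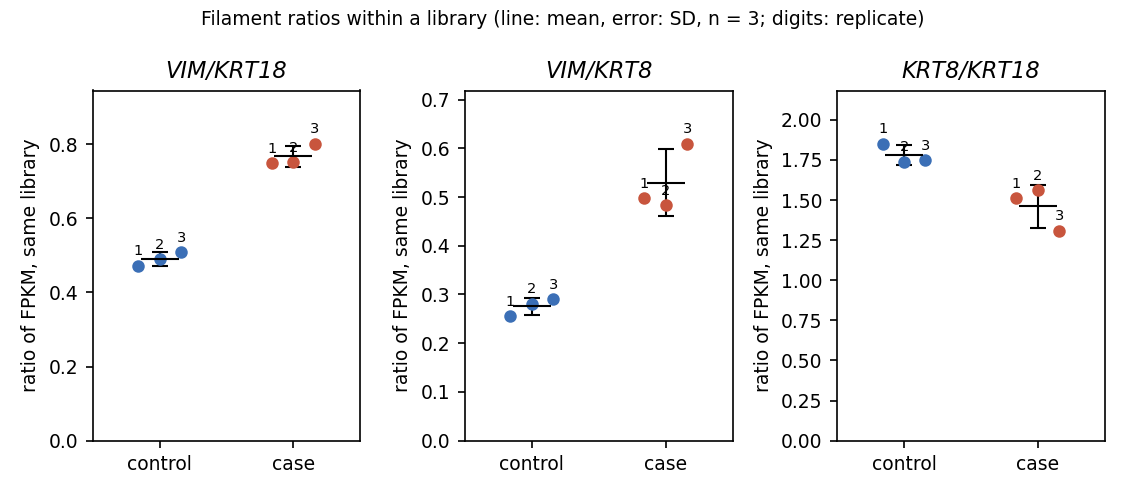
Ratio of the FPKM of VIM to KRT18, VIM to KRT8, and KRT8 to KRT18 within each library (points, digits give the replicate), with the mean (line) and SD (error bar) of each group of 3. The ratio of VIM to KRT18 is 0.472 to 0.509 in the control libraries and 0.749 to 0.801 in the case libraries.

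The genes whose pattern over the 6 libraries was most like that of each tested gene were found by the Euclidean distance of their centred log2 values. For VIM these were COPS9, a subunit of the COP9 signalosome (distance 0.0935), the antisense RNA CAPN1-AS1 (0.116), and GSTO1, a glutathione transferase of the omega class (0.133). For KRT18 they were GALT (0.0389), PARD6A (0.0907), and DUSP23 (0.102), and for LCN2 they were ZNF692 (0.0585), ASPHD2 (0.102), and ALG12 (0.112). COPS9 had FPKM of 17.3, 17.2, and 17.2 in the control libraries and 27.5, 21.8, and 28.5 in the case libraries. Case replicate 2 was the lowest of the case group, as for VIM, which follows from how COPS9 was picked. The likeness rests on 6 libraries and 13599 candidate genes and is a description.

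The label was then checked against wider lists of renal genes. The renal epithelial factor list held 12 genes, of which 8 were in the table and 4 (HNF4A, CDH6, EYA1, and WT1) were not analysed here. Of the 8 genes, 2 were tested and neither was called. LHX1, a factor of early nephron formation, had FPKM of 2.56, 2.19, and 2.58 in the control libraries and 2.19, 2.67, and 2.01 in the case libraries (log2 fold change -0.02, SE 0.13, limma adjusted P = 0.928). CDH16, the kidney-specific cadherin, was above 0 only in control replicate 1 (FPKM 0.0147).

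Of 20 brush border genes, 19 were in the table, 15 of them lay under the filter, and none was listed at 0 in all libraries. The endocytic receptors of the proximal tubule were close to 0, as LRP2 (megalin) was above 0 only in control replicate 2, at an FPKM of 0.00686, and CUBN (cubilin) was at most 0.0508. The 2 most abundant genes of the list were EZR, a linker of membrane to actin (FPKM 124 ± 3.35 for the controls and 113 ± 8.35 for the cases, SD, n = 3), and the scaffold NHERF1 (28.7 ± 0.857 and 24.4 ± 3.29), both of which many epithelia express. None of the 4 tested genes was called, and their median log2 fold change was -0.11, against a median over all tested genes within 0.01 of 0. The other 2 tested genes, named after their values had been seen, were the aspartic peptidase NAPSA (1.45 ± 0.228 and 1.41 ± 0.279, SD, n = 3) and ENPEP, aminopeptidase A (0.647 ± 0.0584 and 0.473 ± 0.120). The list thus held genes close to 0 and genes that were expressed.

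The proximal transporter and metabolism list held 27 genes, of which 16 were in the table and 11 (SLC22A6, SLC22A8, PCK1, and FABP1 among them) were not analysed here. BHMT was listed at 0 throughout, and 12 of the 16 lay under the filter. Of the 4 genes tested, 2 fell, beside 5.84% of all tested genes, and none rose. SLC4A4, the basolateral sodium bicarbonate cotransporter, had FPKM of 2.35, 2.50, and 2.45 in the control libraries and 1.22, 1.67, and 1.19 in the case libraries (log2 fold change -0.74, SE 0.15, limma adjusted P = 0.0221). GATM, the first enzyme of creatine synthesis, had FPKM of 3.35, 3.28, and 3.33 against 2.36, 2.61, and 2.38 (-0.35, SE 0.10, adjusted P = 0.0496). The call of GATM lay at the threshold and was kept in 6 of 17 alternatives, and that of SLC4A4 in 12. The most abundant genes of the list were FBP1 (8.05 ± 0.960 and 6.83 ± 1.36, SD, n = 3), an enzyme of gluconeogenesis, and CYP27B1 (3.58 ± 0.216 and 3.02 ± 0.185), which makes active vitamin D, and neither passed the test. Over the 4 tested genes the median change was -0.26 on the log2 scale.

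**Figure D4:**
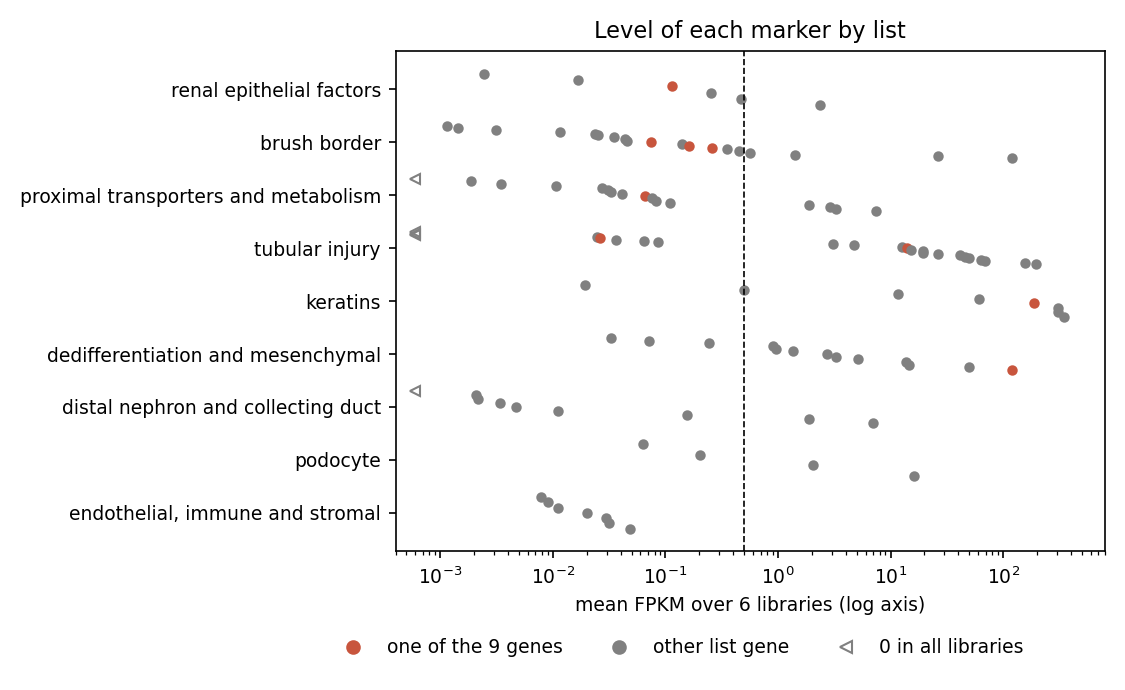
Mean FPKM over the 6 libraries (log axis) of the genes shown from 9 marker lists, with the 9 genes in red, other genes in grey, and open triangles for genes at 0 in all libraries. Most brush border and proximal transporter genes lie left of the filter of 0.5 (dashed line), whereas 7 of 8 keratins and 15 of 23 injury genes lie right of it.

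Among 24 genes that mark injured or repairing tubules, 23 were in the table (TFF3 was not analysed here) and 15 were tested. Of these, 5 rose, beside 7.34% of all tested genes, and 1 fell, beside 5.84%. Their median log2 fold change was 0.24. CCN2 (connective tissue growth factor) rose from FPKM of 16, 15.9, and 13.4 to 23.0, 25.1, and 23.8 (log2 fold change 0.75, SE 0.09, limma adjusted P = 0.00780) and was called in 17 of 17 alternatives. CDKN1A, the p21 inhibitor of the cell cycle, rose from a mean FPKM of 39.7 ± 1.28 to 59.6 ± 4.23 (SD, n = 3, log2 fold change 0.66, SE 0.09, adjusted P = 0.0101). CLU (clusterin), a secreted chaperone, rose by 0.50 (SE 0.10, adjusted P = 0.0201), the matricellular gene CCN1 by 0.37 (SE 0.08, adjusted P = 0.0233), and TIMP1, an inhibitor of metalloproteinases, by 0.37 (SE 0.10, adjusted P = 0.0432), all by limma. The calls of CDKN1A and CLU were kept in 14 and 12 of 17 alternatives, and those of CCN1 and TIMP1 in 9 and 7.

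The gene of the injury list that fell was CD24, a surface glycoprotein, with FPKM of 54.6, 56.7, and 56.7 in the control libraries and 33.6, 36.6, and 38.8 in the case libraries (log2 fold change -0.55, SE 0.07, limma adjusted P = 0.00951). The call of CD24 was kept in 14 of 17 alternatives and was lost when any control library was left out. The most abundant genes of the list were CCN1 (176 ± 8.95 and 216 ± 8.52, SD, n = 3) and B2M (161 ± 9.35 and 152 ± 14), the light chain of class I molecules, which was not called (adjusted P = 0.964). VCAM1, PROM1, and CCL2, which mark failed repair, progenitor-like cells, and inflammation, were listed at 0 in all 6 libraries. The injury list therefore held genes that rose, a gene that fell and genes at 0, and HAVCR1 and LCN2 were not among those that rose.

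Of 12 keratins, 8 were in the table (KRT20, KRT5, KRT14, and KRT23 were not analysed here), 7 were tested, and none was called, while 2 were lower at an unadjusted P under 0.05, as were 2207 of all 13599 tested genes. KRT19 (352 ± 6.50 and 340 ± 42.4, SD, n = 3) and KRT7 (329 ± 70.0 and 287 ± 89.8), keratins of simple and ductal epithelia, were the most abundant. The median log2 fold change of the 7 was -0.14. In the dedifferentiation and mesenchymal list, 13 of 15 genes were in the table (CDH2 and TWIST1 were not analysed here), and of the 10 tested genes VIM rose and 2 fell (7.34% and 5.84% of all tested genes). CDH1 (E-cadherin), the adhesion molecule of epithelia, had FPKM of 3.34, 3.50, and 3.40 in the control libraries and 1.83, 2.32, and 2.00 in the case libraries (log2 fold change -0.64, SE 0.11, limma adjusted P = 0.0156). FN1 (fibronectin), a matrix protein of mesenchymal cells, had FPKM of 1.08, 1.34, and 1.21 against 0.529, 0.691, and 0.549 (-0.86, SE 0.20, adjusted P = 0.0328). The call of CDH1 was kept in 13 of 17 alternatives and that of FN1 in 10 of 16, and FN1 lost it with no filter on low values, with the replicate block (adjusted P = 0.0535), and without any control library or case replicate 3.

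VIM and FN1, both counted as mesenchymal genes, had log2 fold changes of opposite sign, and neither sign turned in any alternative run. SNAI2, of the same list and named after its values had been seen, was not called (log2 fold change 0.78, SE 0.23, limma adjusted P = 0.0629). Its FPKM was 0.847, 0.782, and 0.504 in the control libraries and 1.05, 1.20, and 1.37 in the case libraries, without overlap. TGFB1, the second most abundant gene of that list after VIM, had FPKM of 50.7 ± 2.16 and 49.7 ± 6.30 (SD, n = 3) and was not called (adjusted P = 0.831). The median log2 fold change of the 10 genes was 0.02. The epithelial surface gene EPCAM, named after its values had been seen, was at 13.8 ± 0.970 and 13.4 ± 0.348 (SD, n = 3, log2 fold change 0.04, SE 0.09, adjusted P = 0.795).

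Markers of other renal and non-renal cells were examined beside these genes. Of 12 distal nephron and collecting duct genes, 9 were in the table (UMOD, PVALB, and AQP2 were not analysed here), SCNN1B was listed at 0, and the 2 that were tested both fell, beside 5.84% of all tested genes. AQP3, the basolateral water channel of the collecting duct, had FPKM of 9.37, 10.4, and 9.26 in the control libraries and 4.58, 5.11, and 3.40 in the case libraries (log2 fold change -1.07, SE 0.15, limma adjusted P = 0.0101). SCNN1A, a subunit of the epithelial sodium channel, had FPKM of 2.43, 2.70, and 2.08 against 1.40, 1.46, and 1.35 (-0.65, SE 0.14, adjusted P = 0.0252). The summed FPKM of the list was 12, 13.2, and 11.5 in the control libraries and 6.15, 6.78, and 4.93 in the case libraries, most of it AQP3. The calls of AQP3 and SCNN1A were kept in 15 and 12 of 17 alternatives. Their part in the changes of the 9 genes was not tested.

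Of 5 podocyte genes, 4 were in the table, and the 2 tested genes, SYNPO (FPKM 19.3 to 20.5 in the control libraries and 9.78 to 13.8 in the case libraries) and PODXL (2.22 to 2.80 and 1.37 to 1.79), fell by 0.63 each on the log2 scale (SE 0.14 each, limma adjusted P = 0.0263 and 0.0309), beside 5.84% of all tested genes that fell, with the calls kept in 11 and 12 of 17 alternatives. NPHS1 (nephrin), the defining gene of podocytes, was at most 0.119, and both called genes are known from other cell types as well. The summed FPKM of the list was 21.9, 23.2, and 23.5 against 15.2, 15.7, and 11.4. The 7 endothelial, immune, and stromal genes in the table (of 10, with PTPRC, CD3E, and PDGFRA not analysed here) were all under the filter, with COL3A1 and PDGFRB the highest, and summed to an FPKM of 0.0973 to 0.206 in each library. The counts of called genes in each list were equal without case replicate 2 and in the voom fit of the recovered reads.

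**Figure D5:**
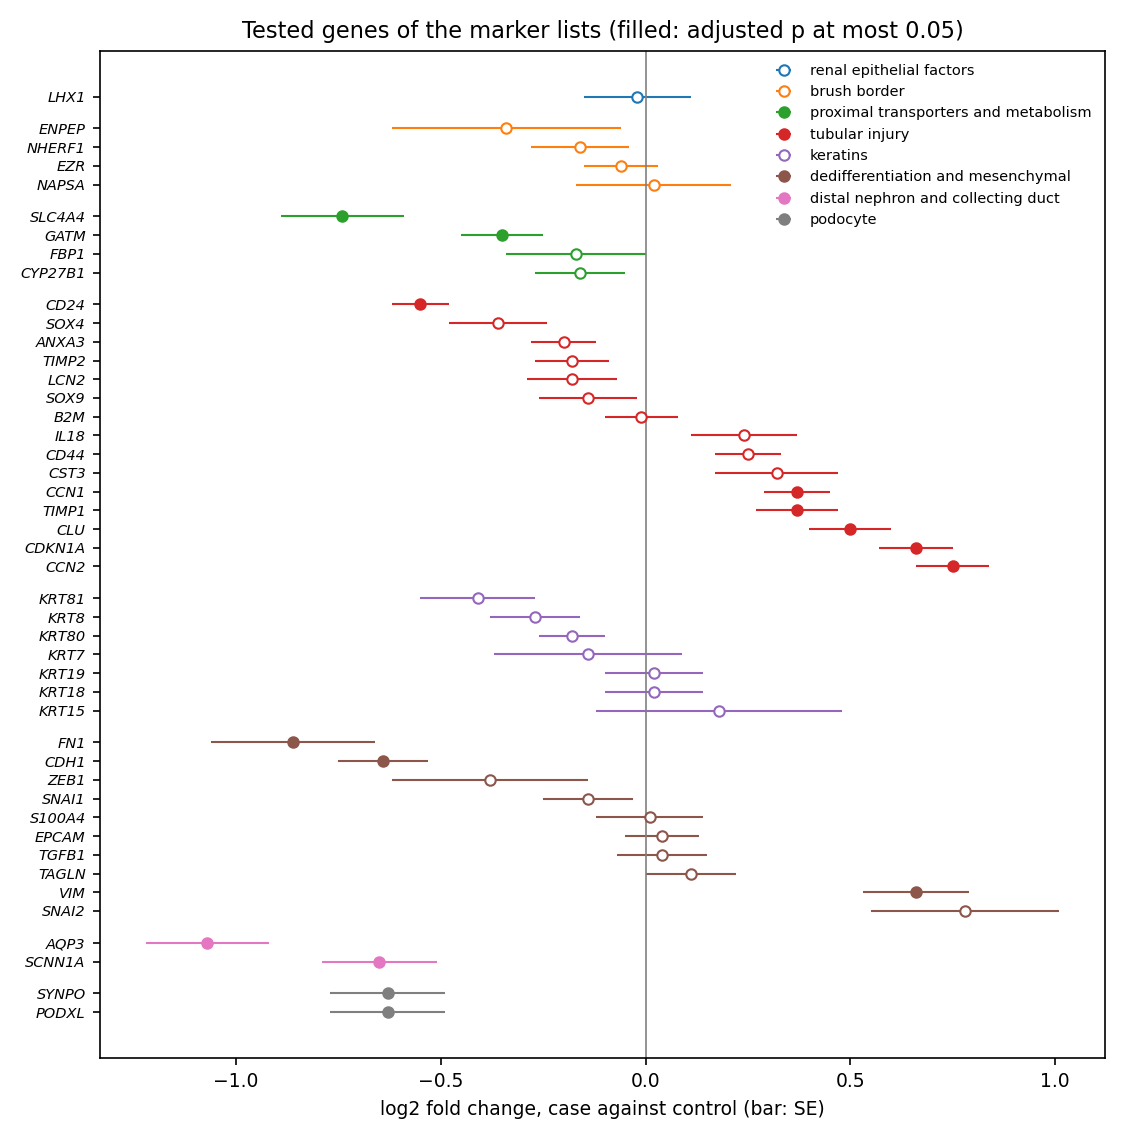
Log2 fold change (case against control, with SE) of the tested genes shown from the marker lists, each gene drawn once under the first list that holds it, with filled points for an adjusted P of at most 0.05. Calls to the right are VIM and 5 injury genes, and calls to the left include AQP3, FN1, SLC4A4, CDH1, and CD24.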

How the data were processed

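RNA of 3 control and 3 case libraries was sequenced by the authors. As stated in the submitters' processing notes, the reads were aligned with HISAT2 2.1.0 to GRCh38 (p13) and counted on genes with HTSeq 0.6.0. The deposited values are FPKM of 29483 genes, which the authors made from counts by gene length and library size. The strandedness of the libraries and the gene annotation are not given in the sources used here. Whole reads were recovered here from the steps of the FPKM values (implied length whole to within 0.01 bases for 99.6% of genes with steps), which gave library sizes of 15363254 to 18634891 reads. The reads carry no molecular identifiers and are not independent molecules, so that intervals cover counting error only.

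The libraries were scaled by median-of-ratios factors and the values transformed to log2 after 0.1 was added, so that fold changes of low genes are understated. The 13599 genes with a mean FPKM of 0.5 or more were compared in R 4.3.3 with limma 3.58.1 with an intensity trend, two-sided and without covariates, with Benjamini-Hochberg adjustment over these genes. DE genes had an adjusted P of at most 0.05. Low genes were compared by exact permutation tests (scipy 1.17.1), with limma voom on the recovered reads beside them. The procedure was tested on simulated data in which both groups had the same spread. In the data, the median SD on the log2 scale was 0.089 for the control and 0.19 for the case libraries. Unequal spread was therefore not covered by the simulation. Positions are those of GENCODE on GRCh38, matched by identifier for 29063 genes, and promoters are those of RefSeq on GRCh38.p14.

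The 9 genes and the 9 marker lists were chosen with earlier results of these data known. Of the 137 genes in all lists, 107 were in the table. In addition to the 9 genes, the text names each called gene and the 2 most abundant genes of each list. It also names genes listed at 0 throughout, genes of related name, and the 3 nearest genes to each tested gene. Further genes were named after their values had been seen, and some genes of the lists are not reported here. Alternatives were other pseudocounts, filters, scalings, and limma settings, the replicate number as a block, each library left out in turn, and voom on the recovered reads, the last added after the data were seen.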

Additional observations from a re-analysis of the deposited data

How the results depend on the processing

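Of the 9 genes, VIM kept its direction in 17 of 17 alternatives (log2 fold change 0.46 to 0.82) and its call in 11. Its call was lost with no filter on low values (0.68, adjusted P = 0.0631) and without the intensity trend (0.66, adjusted P = 0.0512), and leaving out one library gave 0.58 to 0.82, with the call lost without any control library or case replicate 3. KRT18 was not called under any setting, but its sign turned with unscaled FPKM (-0.06), TPM (-0.18), and quantile normalization (-0.20), and ranged from -0.06 to 0.16 when one library was left out. LCN2 was called in TPM only (-0.38, adjusted P = 0.0450), where the median of all tested genes lay at -0.19. Unscaled FPKM moved that median to -0.08. The members called higher numbered 0 with no filter, 0 without the trend, and 0 to 1 when one library was left out, and the members called lower numbered 1 in TPM. The causes of these changes were not tested.

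Over all tested genes, 998 were called higher and 794 lower. The calls higher numbered 347 with no filter, 662 unscaled, 383 in TPM, and 436 without the trend, and the calls lower numbered 177 with no filter, 1124 unscaled, 2387 in TPM, 416 without the trend, and 1504 by voom (with 1293 higher). Leaving out one library gave 55 (without control replicate 2) to 1813 (without case replicate 2) higher and 14 to 1682 lower. Without any one control library the calls higher numbered 55 to 76, and without case replicate 3 they numbered 121.

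In the marker lists, the calls were as follows. Proximal transporters and metabolism had 1 gene lower with either other pseudocount, quantile normalization, no trend, robust estimation, or the replicate block, 0 with no filter, and 0 to 2 when one library was left out. Tubular injury had 2 genes higher with no filter, 3 in TPM, with quantile normalization, and without the trend, and 1 to 5 with one library left out, and it had 5 lower in TPM, 2 with quantile normalization, and 0 to 1 with one library left out. Brush border genes called lower numbered 2 in TPM and 1 with quantile normalization. Keratins called lower numbered 2 unscaled, 3 in TPM, 3 with quantile normalization, and 0 to 2 with one library left out. Dedifferentiation and mesenchymal genes had 0 higher with no filter or no trend, 2 with quantile normalization, and 0 to 1 with one library left out, and 1 lower with no filter, a mean FPKM of at least 1, or the replicate block and 0 to 2 with one library left out. Distal nephron and collecting duct genes had 1 lower with no filter and 0 to 2 with one library left out. Podocyte genes had 0 lower with no filter, 1 without the trend, and 0 to 2 with one library left out.

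The replicate numbers did not pair the libraries, as the correlation of the deviations of same-numbered libraries was 0.0634, 0.0999, and -0.0535, and only number 1 correlated best with its own number. With the replicate number as a block, 848 genes were called higher and 762 lower, VIM was called (0.66, adjusted P = 0.025), and GATM, TIMP1, and FN1 were not (adjusted P = 0.0868, 0.0515, and 0.0535). The depth limits the 6 low genes, where at most 32 reads stand behind a value and a change could not be resolved.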
